A study of Mus musculus with 4 samples.

Results

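The 8 genes described here encode the hypoxia-inducible factors and the proteins around them: the alpha subunits Hif1a, Epas1 and Hif3a, their partners Arnt and Arnt2, the prolyl hydroxylases Egln1 and Egln3, and Vegfa, the best known target. They were taken by symbol from a table of raw read counts with 23282 distinct features, and each matched 1 row. The counts are of nascent RNA, that is, RNA that stayed with the chromatin pellet when isolated nuclei were lysed and the pellet was washed. The cells were C2C12 myotubes, multinucleated muscle cells formed from a mouse myoblast line labelled female. All cultures had been deprived of steroids. For 2 h they received vehicle, whose make-up is not given, or dexamethasone, a synthetic glucocorticoid, at 1 µM, with 2 libraries for each treatment, and the question is which of these genes differ in chromatin-bound RNA after that short exposure. No oxygen treatment is named in the labels. C2C12 is a single immortal line, so the libraries do not sample different animals, and since nothing says that they are separate cultures, the p-values measure only the spread between these libraries.

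Hypoxia-inducible factors are pairs of an alpha and a beta subunit, both of the basic helix-loop-helix PAS family, which bind DNA together and switch on genes for glycolysis, angiogenesis and oxygen delivery. In the presence of oxygen the EGLN enzymes hydroxylate prolines of the alpha subunit, the von Hippel-Lindau protein recognises them, and the subunit is degraded. Control of the alpha subunits is therefore largely at the protein level, which RNA counts do not show. Skeletal muscle makes much of its Vegfa in the fibres themselves, and Egln3 is itself a hypoxia-induced gene.

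Library totals ran from 19631435 counts in vehicle replicate 1 to 88596296 in dexamethasone replicate 2. Values are given as CPM, counts set to a common library size after TMM scaling. Intervals given for a ratio of counts cover counting error only, since each rests on a single pair of libraries. The reads carry no molecular identifiers, so copies of the same molecule cannot be told from separate molecules. The treatment was visible in Fkbp5, a co-chaperone of steroid receptors and a classic glucocorticoid-induced gene, at 21.5 and 21.6 CPM with vehicle against 1019 and 696.7 CPM with dexamethasone (log2 fold change 5.32, SE 0.263, edgeR adjusted p 0.0429). Per1 had 15.6 and 19.1 against 91.0 and 109.0 CPM, Tsc22d3 65.6 and 32.8 against 405.1 and 239.7 CPM, and the glucocorticoid receptor gene Nr3c1 237.9 and 180.2 against 121.4 and 83.8 CPM, without passing in edgeR. All 12 myotube markers were detected in every library, and 10 markers of unfused or cycling myoblasts summed to 63.9 and 66.7 CPM with vehicle and to 49.4 and 56.8 CPM with dexamethasone. Of these 10, 7 had positive and 3 negative log2 fold changes, with a median of 0.15. Among the 3 was Pax7, a gene of muscle stem cells, at 31.97 and 39.03 against 17.9 and 22.9 CPM (log2 fold change -0.80, SE 0.201, edgeR adjusted p 0.456). Markers of endothelial cells, in which Epas1 is typically abundant, summed over 10 genes to 11.8 and 11.04 CPM with vehicle and to 9.94 and 8.87 CPM with dexamethasone. Those of immune cells summed to between 5.15 and 7.74 CPM over 8 genes, of which Cd3e was at 0 within a run of 164 neighbouring genes on chromosome 9 without a count, so it was not measured here. The part of these markers in the differences between treatments was not tested.

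None of the 8 genes passed the threshold between dexamethasone and vehicle. Hif3a, the least abundant, had the largest difference, with both dexamethasone libraries about 3-fold above both vehicle libraries. Epas1 was the next largest, but its libraries overlapped between treatments. Hif1a, Arnt, Arnt2 and Egln3 had log2 estimates between -0.041 and 0.075, while Egln1 and Vegfa had estimates of -0.25 and -0.23. edgeR's quasi-likelihood test with Benjamini-Hochberg adjustment over 13285 genes called 0 of the 8 at an adjusted p under 0.05, against 0.0376% of all genes. DESeq2's Wald test also called 0 of 8 (2.22% of the genes it adjusted), as did limma-voom, which called 0% of all genes. At an unadjusted p under 0.05, edgeR and limma-voom each had 1 of the 8 higher (Hif3a) and 0 lower, and DESeq2 had 0. For edgeR the shares of all genes were 4.09% higher and 1.69% lower. The edgeR adjusted p was 0.9999 for the 7 genes other than Hif3a. In bulk RNA, fewer nuclei that transcribe a gene and less RNA per nucleus cannot be told apart.

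**Figure D1:**
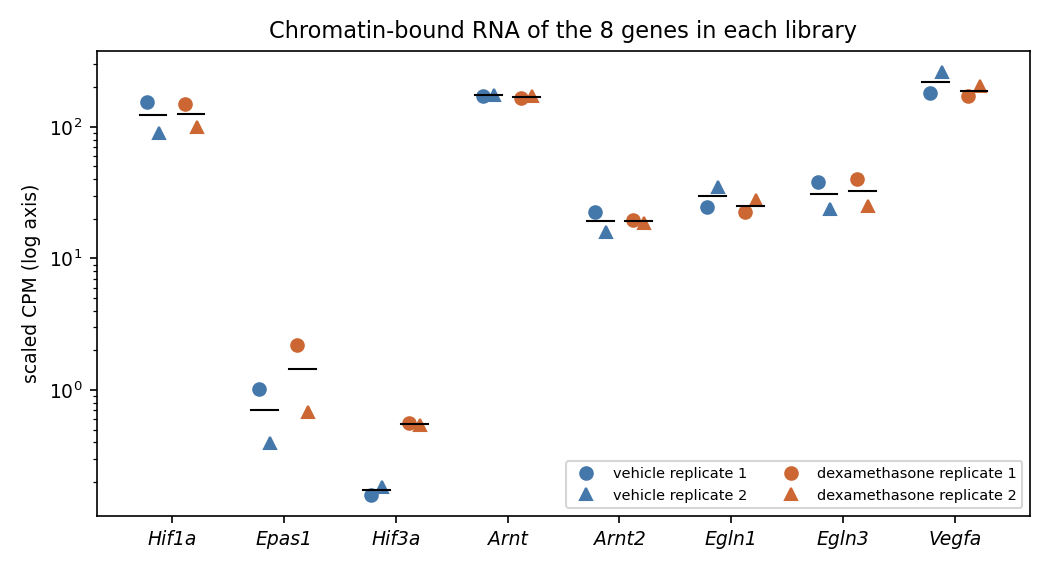
Scaled CPM (log axis) of the 8 genes in each of the 4 libraries. Blue marks vehicle, orange dexamethasone, circles replicate 1, triangles replicate 2, and bars the mean of each group. The groups stand apart visibly only in Hif3a, while Hif1a, Epas1 and Egln3 are higher in both replicate 1 libraries.

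**Figure D2:**
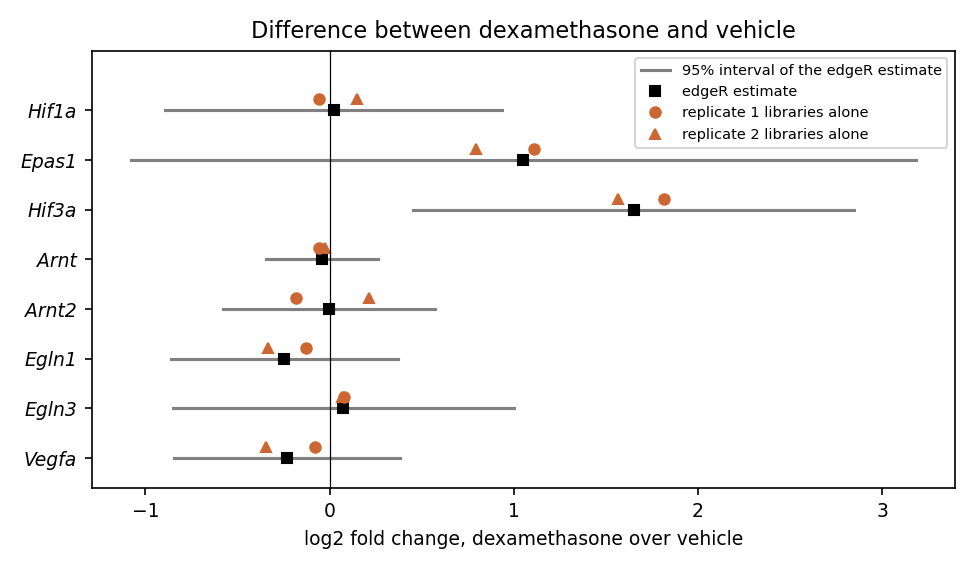
Log2 fold change of dexamethasone over vehicle for the 8 genes. Squares are edgeR estimates with their 95% intervals (grey), and orange symbols are the ratios within replicate 1 (circles) and replicate 2 (triangles). The interval of Hif3a alone leaves out 0, and the intervals of the other genes reach to both sides. Hif3a entered the test only through its dexamethasone libraries, and its difference did not pass (edgeR adjusted p 0.518).

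Hif3a encodes the third alpha subunit, whose shorter splice forms restrain the other alpha subunits. Its counts were 3 and 7 with vehicle against 17 and 51 with dexamethasone. Scaled, this is 0.161 and 0.184 CPM against 0.567 and 0.546 CPM. Both dexamethasone libraries were above both vehicle libraries, as in 15% of all tested genes, and the libraries of each treatment lay close to each other. The edgeR log2 fold change was 1.65 (SE 0.452, 95% interval 0.45 to 2.85), with an unadjusted p of 0.0173 and an adjusted p of 0.518, so the difference did not pass. The ratio of dexamethasone to vehicle was 3.52 between the replicate 1 libraries (95% counting interval 1.02 to 18.8) and 2.96 between the replicate 2 libraries (1.34 to 7.73). Hif3a passed the filter on low counts only through its dexamethasone libraries, so a gene at its level that did not differ would not have been tested. DESeq2's Wald test gave it an unadjusted p of 0.119 and an adjusted p of 0.9999, and over all full-sample alternatives the adjusted p ran from 0.0580 to 0.9999. Leaving out any library kept the log2 fold change between 1.58 and 1.78.

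The promoter of Hif3a is shown because it belongs to the gene with the largest difference. The 250 bases before the RefSeq start on the minus strand lie at chr7:17062428-17062677 (GRCm38.p6), and capitals mark GCGTG, a core of the hypoxia response element, read on either strand (CACGC is GCGTG on the other).
Hif3a: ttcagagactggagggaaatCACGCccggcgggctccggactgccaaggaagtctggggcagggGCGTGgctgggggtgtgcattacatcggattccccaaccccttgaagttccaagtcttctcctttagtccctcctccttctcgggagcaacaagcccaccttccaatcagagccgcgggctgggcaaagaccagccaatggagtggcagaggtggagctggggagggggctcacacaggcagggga
The stretch holds GCGTG at 230 to 226 bases before the start on the opposite strand and at 186 to 182 bases on the strand of the gene. It holds no AGAACA on either strand, the hexamer that stands at either end of a glucocorticoid response element (TGTTCT on the other strand), and so no full element.

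The genes most like Hif3a over the 4 libraries were Gpm6b, a membrane glycoprotein gene, Foxo3, a forkhead transcription factor gene, and Sulf2, a heparan sulfate sulfatase gene. They were chosen among 8075 genes with at least 10 CPM by the smallest root-mean-square difference in centred log2 CPM, which was 0.0119, 0.0561 and 0.0582. This log2 CPM included a prior of 2 counts, which shrinks differences at low counts. For Hif3a the log2 differences within replicates 1 and 2 were 1.57 and 1.37 with the prior, against 1.82 and 1.57 without it. Gpm6b had 42.1 and 45.9 CPM with vehicle and 124.5 and 119.4 CPM with dexamethasone. Foxo3 had 201.8 and 244.1 against 657.9 and 591.8 CPM, and Sulf2 28.7 and 32.5 against 85.9 and 91.2 CPM. These differences follow from the choice of genes by their likeness and are a description, not a test. The likeness describes 4 values per gene, and those of Hif3a rest on few counts.

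Epas1 encodes the second alpha subunit, HIF-2 alpha, known best from endothelium, lung and kidney. It had 19 and 15 counts with vehicle and 66 and 64 with dexamethasone, which is 1.02 and 0.395 CPM against 2.20 and 0.685 CPM. Vehicle replicate 1 was above dexamethasone replicate 2, so the treatments overlapped, and the replicate 1 library was the higher in each treatment. The log2 fold change was 1.05 (SE 0.805, 95% interval -1.08 to 3.18; edgeR unadjusted p 0.253). Within replicate 1 the ratio of dexamethasone to vehicle was 2.16 (95% counting interval 1.28 to 3.81), and within replicate 2 it was 1.73 (0.977 to 3.28). The estimate rested on single libraries: it was -0.0052 without dexamethasone replicate 1 and 1.82 without vehicle replicate 1. Of the 10 endothelial markers 5 passed the filter, all 5 with negative log2 fold changes (median -0.29). Most of their sum was Vwf, at 144, 276, 202 and 510 unscaled counts in vehicle 1 and 2 and dexamethasone 1 and 2. Tek had 19 to 86 counts and Pecam1 21 to 104, while Cdh5 had at most 17 and Tie1 at most 1.

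Hif1a encodes the alpha subunit found in most cells. Its levels were 155.6 and 89.6 CPM with vehicle and 149.6 and 99.4 CPM with dexamethasone, with at least 2901 counts in every library. The treatments overlapped, and in both the replicate 1 library was the higher. The fold change was 1.02 with a 95% interval of 0.539 to 1.91 (log2 0.022, SE 0.345). The ratio was 0.961 within replicate 1 and 1.11 within replicate 2. Per kilobase of annotated exon, Hif1a made up between 98.1% and 99.4% of the summed RNA of the alpha subunits in each library. The share of Hif3a in that sum was 0.0902% and 0.180% with vehicle against 0.327% and 0.477% with dexamethasone, and that of Epas1 lay between 0.462% and 1.52%.

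Arnt encodes the constitutive beta subunit HIF-1 beta, which also pairs with the aryl hydrocarbon receptor. It was the steadiest of the 8 genes, at 172.7 and 175.9 CPM with vehicle and 166.1 and 172.7 CPM with dexamethasone. Its dexamethasone values were under its vehicle values, as in 12.9% of all genes, but the nearest pair differed by 0.00907%, less than the counting error of 0.788% in the deeper of them. Its fold change was 0.972 (95% interval 0.786 to 1.20; log2 -0.041, SE 0.116), the narrowest interval among the 8. Arnt2, the relative of Arnt that is most prominent in the nervous system, had 22.4 and 15.9 CPM with vehicle and 19.8 and 18.5 CPM with dexamethasone. Its libraries overlapped, the fold change was 0.998 (95% interval 0.670 to 1.49; log2 -0.0024, SE 0.217), and the pairs went opposite ways, at 0.881 within replicate 1 and 1.16 within replicate 2. Per kilobase of exon Arnt was between 7.40 and 10.6 times the level of Arnt2 in each library.

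Egln1 encodes PHD2, the main oxygen-sensing hydroxylase of the alpha subunits. It had 24.6 and 34.8 CPM with vehicle and 22.6 and 27.6 CPM with dexamethasone, overlapping between treatments, with a fold change of 0.843 (95% interval 0.551 to 1.29; log2 -0.25, SE 0.232). The dexamethasone library was the lower in both replicate numbers, at ratios of 0.916 (95% counting interval 0.812 to 1.03) and 0.793 (0.742 to 0.848). Egln3 encodes PHD3, a hydroxylase whose own gene responds to hypoxia. It had 38.2 and 23.7 CPM with vehicle and 40.3 and 24.8 CPM with dexamethasone. The treatments overlapped because the replicate numbers lay far apart, while within each number the ratio was close to 1 (1.06 and 1.05), and the fold change was 1.05 (95% interval 0.555 to 2.00; log2 0.075, SE 0.349). Per kilobase of exon, Egln3 was 2.09 and 2.41 times Egln1 in the replicate 1 libraries of vehicle and dexamethasone, and 0.919 and 1.21 times in the replicate 2 libraries.

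Vegfa encodes the main growth factor for blood vessels. With vehicle it had 179.8 and 261.7 CPM, and with dexamethasone 170.3 and 206.2 CPM. Dexamethasone replicate 2 lay above vehicle replicate 1, so the treatments overlapped, and the replicate 2 library was the higher in each. The fold change was 0.853 (95% interval 0.558 to 1.30; log2 -0.23, SE 0.231). The dexamethasone library was the lower in both replicate numbers, at 0.947 (95% counting interval 0.907 to 0.990) and 0.788 (0.769 to 0.807) of vehicle. Both counting intervals stayed under 1, but the libraries of a single treatment differed by more, at a replicate 1 to replicate 2 ratio of 0.687 for vehicle. Without vehicle replicate 2 the log2 fold change was 0.074, and without vehicle replicate 1 it was -0.47.

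Levels can be set side by side only per length, here as CPM per kilobase of annotated exon. Whether the authors counted exons or whole genes is not given in the sources used here. With vehicle the order was Vegfa at 51.5 ± 13.5 (SD, n = 2), Arnt at 21.8 ± 0.287, Hif1a at 20.8 ± 7.91, Egln3 at 11.6 ± 3.85, Egln1 at 8.27 ± 2.00, Arnt2 at 2.49 ± 0.596, Epas1 at 0.127 ± 0.0789 and Hif3a at 0.0257 ± 0.00248. The libraries of Arnt and Hif1a overlapped, as did those of Egln3 and Egln1, and the other neighbours stood apart. With dexamethasone the order was the same: Vegfa at 43.9 ± 5.92, Arnt at 21.2 ± 0.579, Hif1a at 21.1 ± 6.01, Egln3 at 12.2 ± 4.12, Egln1 at 6.98 ± 0.993, Arnt2 at 2.49 ± 0.117, Epas1 at 0.258 ± 0.192 and Hif3a at 0.0830 ± 0.00221. There only Arnt and Hif1a overlapped. Vegfa RNA on chromatin was thus above that of every alpha subunit in both treatments on this scale.

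Most of the 8 genes separated by replicate number rather than by treatment. Hif1a, Epas1, Egln3 and Arnt2 were higher in both replicate 1 libraries than in both replicate 2 libraries, 4 of 8 beside 31.8% of all tested genes. Egln1 and Vegfa were lower in both, 2 of 8 beside 32.1%. These shares are near those of all genes at this number of members. The replicate 1 level of Hif1a was 1.74 times that of replicate 2 with vehicle and 1.504 times with dexamethasone. For Egln3 the ratios were 1.61 and 1.62, for Epas1 2.58 and 3.21, and for Arnt2 1.41 and 1.07. Vegfa had ratios of 0.687 and 0.826, and Egln1 of 0.707 and 0.817. Of the 12 myotube markers, 10 were higher in both replicate 1 libraries, while Mymk and Mybph overlapped. The 12 summed to 131349 and 126940 CPM in the replicate 1 libraries against 47611 and 46537 CPM in the replicate 2 libraries, and most of that sum was Ttn, the giant sarcomere protein titin, at 118127 and 113355 against 41069.7 and 39943 CPM. Their part in the split of the 8 genes was not tested. Hif3a and Arnt did not separate by replicate number.

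**Figure D3:**
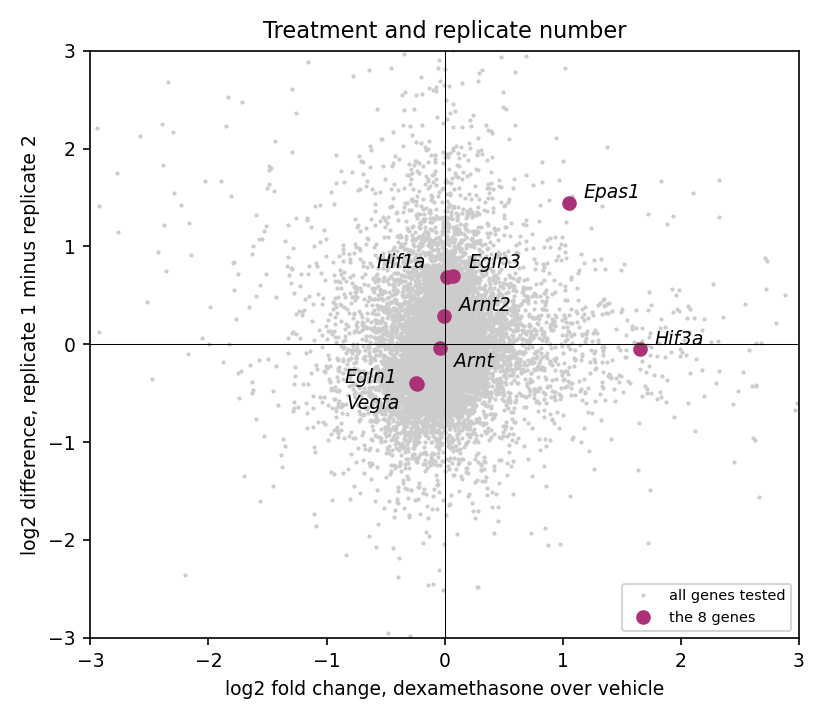
Each point is a gene: the horizontal axis is its log2 fold change of dexamethasone over vehicle and the vertical axis its log2 difference of replicate 1 minus replicate 2, averaged over both treatments. Grey points are all tested genes (53 lie outside the axes, which end at 3 on either side) and purple points the 8 genes, of which Hif3a lies far along the treatment axis and near 0 on the other, while Hif1a and Egln3 do the reverse.

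The promoters of Hif1a and Egln3 are shown because these genes had the same mean log2 difference between replicate numbers, 0.69, and log2 estimates for treatment of 0.022 and 0.075. Each is the 250 bases before the RefSeq start (GRCm38.p6), for Hif1a chr12:73907617-73907866 on the plus strand and for Egln3 chr12:54203875-54204124 on the minus strand, with ACGTG or GCGTG cores of either strand in capitals.
Hif1a: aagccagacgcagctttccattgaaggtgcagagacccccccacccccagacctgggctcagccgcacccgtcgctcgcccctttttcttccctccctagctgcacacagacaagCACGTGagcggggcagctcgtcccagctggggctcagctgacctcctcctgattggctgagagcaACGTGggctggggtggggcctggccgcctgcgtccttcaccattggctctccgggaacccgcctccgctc
Egln3: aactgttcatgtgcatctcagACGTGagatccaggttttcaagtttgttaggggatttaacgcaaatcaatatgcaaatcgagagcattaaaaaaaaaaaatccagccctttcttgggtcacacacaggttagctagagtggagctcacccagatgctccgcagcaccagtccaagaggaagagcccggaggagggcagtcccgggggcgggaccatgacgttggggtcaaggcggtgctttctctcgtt
In Hif1a, ACGTG stands at 134 to 130 and at 70 to 66 bases before the start, the first of them within CACGTG, a palindrome that reads as ACGTG on both strands. In Egln3 it stands at 229 to 225 bases. RefSeq starts were found for 7 of the 8 genes, without Epas1, at 8 starts. ACGTG was found in 4 of these 8 windows (Hif1a, Egln1, Egln3 and the second listed start of Vegfa), against 16.6% of 32851 promoter windows of the same length. GCGTG was found in 4 of the 8 (Arnt, Hif3a, Egln1 and the second start of Vegfa), against 28.2% of all windows. The first Vegfa window, chr17:46032378-46032627 on the minus strand, holds neither core. The second, chr17:46025164-46025413, lies downstream of that first start, so its matches are not upstream of the gene. AGAACA was found in 0 of the 8, against 16.1%. The full glucocorticoid element, AGAACA followed by TGTTCT with 3 bases of any kind between, was found in 0 of the 8, against 0.00913%. These are matches of letters in a short window and say nothing on binding.

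The other genes of the pathway were described from 5 lists of 95 genes, of which 83 were tested. edgeR called 0 of them at an adjusted p under 0.05, limma-voom 0, and the Wald test of DESeq2 made 9 calls, 7 higher (1.81% of all genes) and 2 lower (0.407%). At an unadjusted p under 0.05, edgeR and limma-voom each had 12 higher and 4 lower of the 83, where edgeR had 4.09% and 1.69% of all genes. The libraries did not overlap in 18 that were higher and 13 that were lower, that is 18 and 13 of 83 beside 15% and 12.9% of all genes. The median log2 fold change of the 83 was -0.011, against -0.0016 over all genes tested.

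Among regulators of turnover and activity, which hold the third hydroxylase Egln2, the asparagine hydroxylase Hif1an (FIH), the Vhl ubiquitin ligase and the coactivators Ep300 and Crebbp, 18 of 21 were tested and 0 were called by edgeR, DESeq2 or limma-voom. The median log2 fold change was 0.061 and the range -0.19 to 0.38. The lowest p was that of Siah1a, a ubiquitin ligase acting on the hydroxylases, at 115.9 and 119.2 CPM with vehicle and 154.7 and 151.3 CPM with dexamethasone. Both dexamethasone libraries were the higher, as in 15% of all genes, with a log2 fold change of 0.38 (SE 0.114, edgeR adjusted p 0.616). Hif1an followed at 44.4 and 41.0 against 55.4 and 45.3 CPM (0.24, SE 0.160), then Cited2, which competes with the alpha subunits for coactivators, at 16.5 and 12.9 against 18.6 and 15.6 CPM (0.21, SE 0.206). Elob, elongin B of the Vhl complex, had 7.72 and 7.17 against 6.71 and 6.37 CPM (-0.19, SE 0.186). Vhl itself had a log2 fold change of -0.0054 (SE 0.185). Higd1a and P4htm were listed at 0 within a run of 371 genes of the same strand of chromosome 9 that are all at 0, so these were not measured here, and Cited4 was also listed at 0.

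Of 11 relatives in the bHLH-PAS family 10 were tested, with a median log2 fold change of -0.16, 1 positive and 9 negative. Ahr, the aryl hydrocarbon receptor and a partner of Arnt, had the lowest p: 26.9 and 28.6 CPM with vehicle against 10.01 and 13.002 CPM with dexamethasone. Both dexamethasone libraries were lower by more than the spread within either treatment, at a log2 fold change of -1.27 (SE 0.192), without passing in edgeR (adjusted p 0.191). DESeq2's Wald test called it (adjusted p 0.000146), and over the alternatives with all libraries the adjusted p ran from 0.000146 to 0.418. The clock gene Arntl had 81.2 and 124.4 against 67.7 and 95.8 CPM (-0.33, SE 0.285). Arntl2 had 5.15 and 5.48 against 3.90 and 4.92 CPM (-0.27, SE 0.233). Ahrr, the repressor of Ahr signalling, had 5.47 and 6.03 against 3.803 and 5.53 CPM (-0.30, SE 0.271).

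Of 24 metabolic targets of the factors 21 were tested, with a median log2 fold change of -0.069, 8 positive and 13 negative, and 0 called by edgeR, DESeq2 or limma-voom. At an unadjusted edgeR p under 0.05, which 4.09% of all genes reached as higher and 1.69% as lower, 1 was higher and 0 lower. This was Pfkfb3, the enzyme that makes fructose 2,6-bisphosphate to drive glycolysis, at 10.4 and 13.02 CPM with vehicle and 21.6 and 19.1 CPM with dexamethasone (log2 fold change 0.79, SE 0.191, edgeR adjusted p 0.418). The glycolytic genes with the next lowest p all had lower estimates: Pkm -0.34 (SE 0.213), Ldha -0.30 (SE 0.1998) and Hk1 -0.24 (SE 0.189). Of these 3 only Ldha was without overlap, at 15.4 and 17.6 with vehicle against 11.7 and 15.02 CPM with dexamethasone. Dexamethasone lay below without overlap in 12.9% of all genes. Ppp1r3c was listed at 0 within a run of 146 such genes on a strand of chromosome 19.

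Among 30 other targets 27 were tested, with a median log2 fold change of 0.11. At an unadjusted edgeR p under 0.05, 8 were higher and 2 lower, beside 4.09% and 1.69% of all genes. In DESeq2 the adjusted calls were 5 higher and 1 lower, beside 1.81% and 0.407% of all genes. Ndrg1, a stress-responsive gene induced by hypoxia in many cells, had 126.5 and 148.0 CPM with vehicle and 54.9 and 70.2 CPM with dexamethasone (log2 fold change -1.13, SE 0.181, edgeR adjusted p 0.201). Plod2, a collagen lysyl hydroxylase gene, had 146.1 and 145.4 against 302.0 and 248.0 CPM (0.92, SE 0.150). Ddit4, the mTORC1 inhibitor REDD1, which is known to be induced by glucocorticoids as well as by hypoxia, had 1.72 and 2.87 against 7.21 and 7.91 CPM (1.70, SE 0.319). Vldlr, a lipoprotein receptor gene, had 86.1 and 90.7 against 213.5 and 147.2 CPM (1.03, SE 0.214). The groups did not overlap in any of these 4 genes, which were named for their low p. Among all genes, 15% had dexamethasone above without overlap and 12.9% had it below. Each of the 4 passed in DESeq2 (adjusted p 0.000210, 0.00207, 0.00263 and 0.00765 in that order) and in none of edgeR and limma-voom. Their adjusted p over all alternatives with all libraries ran up to 0.468, 0.252, 0.527 and 0.377, and down to 0.000196, 0.000827, 0.00181 and 0.00521. DESeq2 also called Edn1, endothelin 1, which is named here after its values were seen. Edn1 had 0.751 and 1.74 CPM with vehicle against 4.57 and 4.40 CPM with dexamethasone, and its edgeR log2 fold change was 1.80 (SE 0.4499).

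The relatives and receptors of Vegfa completed the pathway, with 7 of 9 tested. Vegfc and Vegfd, the ligands that act mainly on lymphatic endothelium, had larger estimates than Vegfa. Vegfc had 23.5 and 23.5 CPM with vehicle and 59.4 and 49.3 CPM with dexamethasone, a log2 fold change of 1.21 (SE 0.157, edgeR adjusted p 0.145). Vegfd had 13.8 and 18.6 CPM against 39.6 and 46.2 CPM, a log2 fold change of 1.40 (SE 0.210, edgeR adjusted p 0.191). In both genes each dexamethasone library exceeded each vehicle library, as in 15% of all genes, whereas Vegfa overlapped. The difference between these genes was not tested. DESeq2's Wald test called both (adjusted p 3.19e-05 and 3.49e-05), with ranges over the alternatives with all libraries of 3.19e-05 to 0.234 and 3.49e-05 to 0.436. The co-receptor gene Nrp1 had 154.6 and 191.8 against 99.9 and 126.0 CPM (-0.62, SE 0.190, edgeR adjusted p 0.640), and Nrp2 had 290.3 and 285.7 against 257.9 and 223.4 CPM (-0.26, SE 0.135). Both were lower in both dexamethasone libraries, as were 12.9% of all genes. Of the endothelial receptor genes, Flt1 had 30 and 36 counts with vehicle and 66 and 149 with dexamethasone, or 1.61 and 0.949 against 2.202 and 1.596 CPM. It overlapped between treatments (log2 fold change 0.58, SE 0.417). Kdr and Flt4 had at most 1 count in any library.

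**Figure D4:**
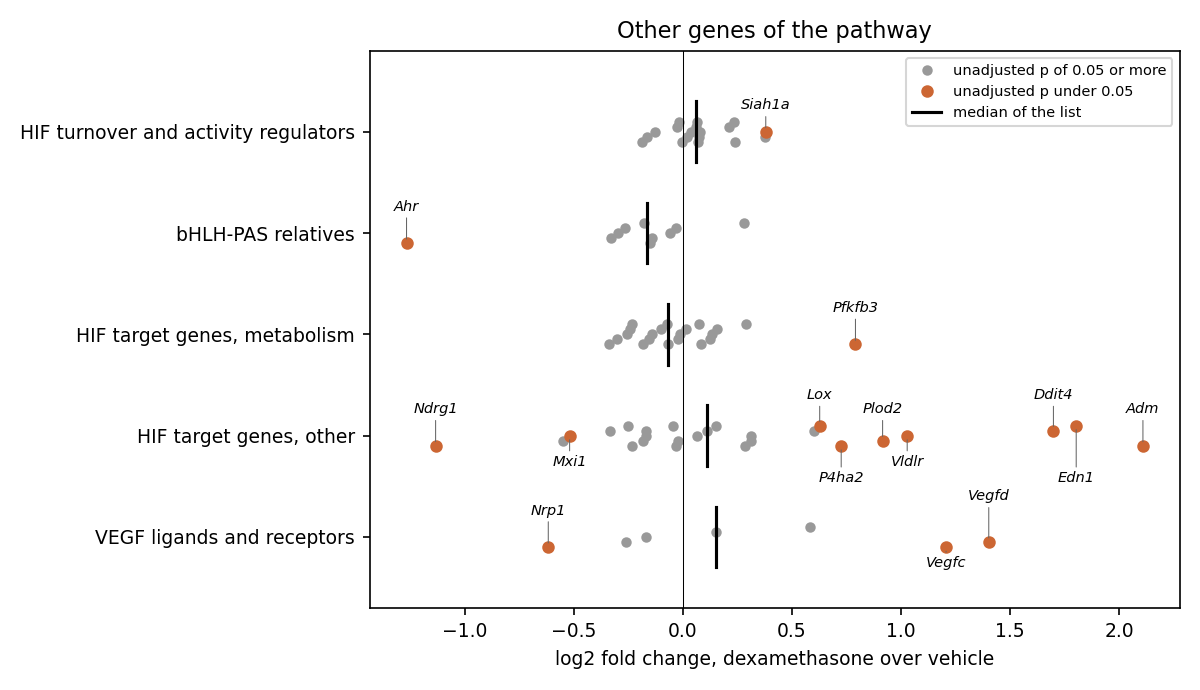
Log2 fold change of dexamethasone over vehicle for the tested genes of the 5 pathway lists (1 gene is not shown), with the median of each list as a bar. Orange points, named, have an unadjusted edgeR p under 0.05; the medians lie between -0.16 and 0.15, and most named points are targets outside metabolism or VEGF genes.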

How the data were processed

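Nascent RNA of 4 libraries was analysed, 2 per treatment, grouped and numbered by sample title. The authors deposited whole-number read counts for each gene, without normalization. Per the submitters' processing notes, TopHat2 2.0.13, SAMtools 1.1, HTSeq 0.6.1 and DESeq2 1.18.1 were used with build mm9. The annotation, the strand setting and whether introns were counted are not given in the sources used here, and the labels name both a stranded total RNA and a stranded mRNA kit. Without the strand setting, reads of Hif1a, Hif3a and Arnt2 cannot be told from those of genes annotated on the opposite strand. Hif1a, Epas1, Arnt and Arnt2 also overlap genes annotated on the same strand, which a strand setting would not separate.

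Of 23333 rows, 51 repeated a symbol with the same counts in every library and were dropped; 26 further rows sharing a symbol were kept. Genes passing filterByExpr (minimum count 10, minimum total 15) entered edgeR 4.0.16 under R 4.3.3 (TMM, quasi-likelihood, group as the only term, two-sided, Benjamini-Hochberg over 13285 genes, threshold 0.05). All 8 members passed the filter. The 95% intervals of fold changes use the moderated SE. The code was tested on simulated data. Alternatives were DESeq2 size factors, library size only, every gene with at least 1 count, a floor of 10 counts in all samples, DESeq2 1.42.0, limma-voom (limma 3.58.1), the replicate number as a block, and leaving out each library. Exon lengths came from GENCODE M21 (GRCm38) by Ensembl identifier. Promoter windows came from RefSeq (GRCm38.p6), which differs from the build of the counts, so its coordinates belong to the printed sequences only.

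The members and lists were chosen with earlier results of these data known. Text names all 8 members, the 4 genes of lowest p in each list and any gene past the threshold, the 3 genes most like a member with an unadjusted p under 0.05, Fkbp5, Per1, Tsc22d3 and Nr3c1 as a check, and Ttn for the replicate split; Vhl, Edn1, Pax7, Flt1, Mymk, Mybph, some endothelial markers and genes with few or no counts were added after their values were seen. Counts and medians of lists include 1 gene that is not reported here. Between 19631435 and 88596296 counts per library give Hif1a, Arnt, Arnt2, Egln1, Egln3 and Vegfa over 400 counts in each, and Hif3a and Epas1 few.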

Additional observations from a re-analysis of the deposited data

How the results depend on the processing

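None of the 8 members was called by edgeR, DESeq2 or limma-voom under any alternative run, single libraries left out included. Over all genes edgeR called 5 higher and 0 lower. The higher calls were 23 when every gene with at least 1 count was tested, 236 with DESeq2's Wald test, 0 with limma-voom (at unadjusted p under 0.05, 540 genes higher and 231 lower) and 913 with the replicate block. Leaving out a library gave 4 to 84: vehicle replicate 2 gave 84, and the dexamethasone replicates 1 and 2 gave 24 and 28. The lower calls were 53 with DESeq2's Wald test, 768 with the block, and 0 to 109 when a library was left out, with 109 without vehicle replicate 2. Of the pathway genes DESeq2's Wald test called 9, the block 24, and 0 to 3 when a library was left out, with 3 without vehicle replicate 2. The cause was not tested. With 1 library left in a treatment, that library is assumed to vary like the other group.

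The labels do not say that a replicate number marks a shared culture or day. Across genes, the gap between the replicates in vehicle had r = 0.734 with that in dexamethasone, from 2 pairs only. With the replicate block, 12.7% of all genes were called, 0 of the 8 members among them, and the adjusted p was 0.0580 for Hif3a, 0.102 for Epas1, 0.104 for Egln1 and 0.129 for Vegfa. At an unadjusted p under 0.05 the block had 2 of the 8 members higher and 2 lower. It had 22 of the 83 tested pathway genes higher and 16 lower, and of all 13285 genes 1714 higher and 1695 lower. At an adjusted p under 0.05 the block called 16 pathway genes higher and 8 lower, beside 6.87% and 5.78% of all genes. Those outside the naming rule are not listed here. Named genes that the block called and neither edgeR without it nor DESeq2 did were Nrp1 (adjusted p 0.000994), Siah1a (0.00756), Pkm (0.0103), Pfkfb3 (0.0115), Arntl (0.0185) and Nrp2 (0.0446). Of these, Siah1a and Pfkfb3 were higher and the others lower. Over the alternatives with all libraries their adjusted p reached 0.855 for Pfkfb3 and 0.99995 or more for the others.

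Signs near 0 changed with the settings. Hif1a was at -0.010 with library size only, and Arnt2 at 0.015 with every gene tested, 0.041 with limma-voom and 0.034 with the block. With a library left out, the log2 estimates ran from -0.32 to 0.47 for Hif1a, -0.0052 to 1.82 for Epas1, -0.22 to 0.26 for Arnt2, -0.47 to 0.036 for Egln1, -0.31 to 0.46 for Egln3, -0.47 to 0.074 for Vegfa and -0.60 to 0.019 for Arntl. In the same fits the list medians ran from -0.29 to 0.019 for metabolic targets and from -0.47 to -0.078 for bHLH-PAS relatives. They ran from 0.0080 to 0.076 for turnover regulators, 0.083 to 0.27 for other targets and 0.018 to 0.29 for VEGF genes. Of the other alternatives of 28 genes with all libraries, 171 kept direction and side and 20 became stronger, all under DESeq2's Wald test or the block. Hif3a had no value with at least 10 counts in all samples, where 0 members had an unadjusted p under 0.05, as also when any 1 library was left out. With 3 to 51 counts it is limited by depth.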
